A study of Homo sapiens with 12 samples.

Results

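The libraries described here are the 3 parental clones of K562 among the 12 RNA sequencing libraries of a study of mutant ASXL1 and of the transcription factors FOXK1 and FOXK2. K562 is a human line derived from chronic myeloid leukaemia. It carries the BCR-ABL1 fusion, a constitutively active tyrosine kinase, and it resembles an early erythroid precursor that can be driven towards red cell or megakaryocyte fates. The clones carry the genotype label parental: the mutant ASXL1 allele that was knocked out in other clones of the series was left in place, and no guide or drug is named for them. All were grown in RPMI-1640 with serum and antibiotics. They were chosen by that label alone, from the table that sets them beside the ASXL1 knockout clones, and no knockout library enters any value below. Each clone is represented by 1 library, so a difference between clones cannot be told apart from a difference between cultures, RNA preparations or libraries. No test between clones is therefore given, and every statement is a description of 3 libraries.

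Levels are FPKM, fragments of a transcript divided by its length and by the mapped fragments of the library. This is a scale per length, so that different genes can be set side by side. The deposited values are such FPKM times 1 factor per library, as described under the processing. Relative to a rounding step of 0.01, the factor was 0.992, 1.007 and 1.032 in clones 1, 2 and 3. The summed FPKM below include it. The depth behind the values is unknown, because no read counts were used, and no counting interval is given. A value of 0 is written as listed at 0. The table holds 58233 genes, with a summed FPKM of 899097 in clone 1, 920299 in clone 2 and 961495 in clone 3. A mean of 1 FPKM or more over the clones was reached by 13630 genes, of which 11060 were protein-coding. A mean from 10 to 100 FPKM was found for 6360 genes, one from 100 to 1000 for 1057 genes, and one of 1000 or more for 135 genes.

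Red cells form from precursors in which GATA1 and KLF1 switch on globin, haem and membrane genes. Globin chains pair as tetramers of alpha-like and beta-like chains, and the genes of each cluster are used in turn from embryo to fetus to adult. Haem is built by a chain of enzymes in mitochondria and cytosol, with iron brought in by the transferrin receptor and kept in ferritin. A cell that follows this path shuts off most genes of other lineages.

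The transcripts of K562 were dominated by the machinery of respiration and translation. The 30 most abundant genes held 25.1% ± 0.745 (SD, n = 3 clones) of the summed FPKM. They comprised 10 genes of the mitochondrial genome, 18 genes of cytosolic ribosomal proteins, the fetal globin gene HBG2 and EEF1A1, which carries aminoacyl-tRNA to the ribosome. As few as 145 to 156 genes per clone held 50% of the summed FPKM.

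Among the mitochondrial genes, the cytochrome oxidase subunit MT-CO2 had 14571 FPKM in clone 1, 15647 in clone 2 and 17663 in clone 3. MT-CO1, another subunit of the same enzyme, was at 11838, 12184 and 12731 FPKM in clones 1, 2 and 3. Clone 3 was the highest and clone 1 the lowest for both. MT-ATP8 stood at the top of the whole list and MT-ND4L just below MT-CO2, with means of 33114 and 14801 FPKM, but their transcripts are only 207 and 297 nucleotides long. The library fragments were size selected at 200 to 300 base pairs, and how far this shapes the FPKM of such short transcripts was not tested. Of the 15 listed transcripts of the mitochondrial genome, 14 were highest in clone 3 and lowest in clone 1, an order that 31.9% of all genes of mean 10 FPKM or more had; MT-RNR2, the large mitochondrial ribosomal RNA, ran the other way, with 3182, 2941 and 2776 FPKM. As a share of the summed FPKM, mitochondrial transcripts took 13.3% in clone 1, 13.8% in clone 2 and 15.0% in clone 3, or 14.04% ± 0.910 (SD, n = 3).

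**Figure D1:**
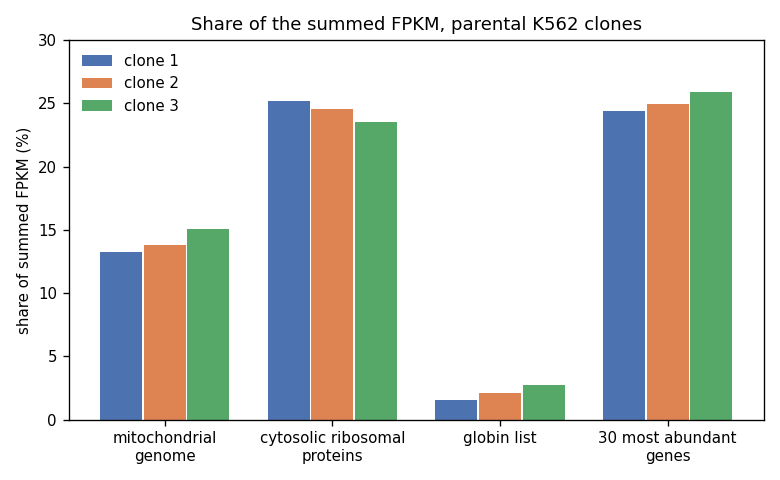
Bars give the percentage of each clone's summed FPKM held by transcripts of the mitochondrial genome, by cytosolic ribosomal protein genes, by the 11 genes of the globin list and by the 30 most abundant genes, which overlap the other classes. The mitochondrial share was 13.3% to 15.0%, the ribosomal protein share 23.5% to 25.2% and the globin share 1.52% to 2.74%; clone 3 had the highest mitochondrial and globin shares and the lowest ribosomal protein share.

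Ribosomal proteins differed little between clones. The 84 ribosomal protein genes of mean 10 FPKM or more had a median level of 2451 FPKM. Their median ratio of highest to lowest clone was 1.05, beside 1.15 for all genes of mean 10 FPKM or more. None reached a ratio of 2, which 1.88% of all genes of mean 10 FPKM or more did, and 0.741% of those of 1000 or more. These shares are too low for the absence of such genes to set the ribosomal proteins apart. RPS27, a small-subunit protein, had 6847, 6872 and 6833 FPKM in clones 1, 2 and 3, so that the clones lay within a ratio of 1.01. EEF1A1 had 8652, 8573 and 8168 FPKM, with clone 3 the lowest. As a class these genes took 25.2%, 24.5% and 23.5% of the summed FPKM in clones 1, 2 and 3, an order opposite to that of the mitochondrial and globin shares. FPKM are relative to the whole library, so a larger share for one class leaves less for the others.

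Below these classes stood a mix of red cell and housekeeping genes. A view added after the values were seen left out genes of the mitochondrial genome, listed translation factors and all genes or pseudogenes named RPL or RPS. The highest genes were then HBG2, FTL, HBA1, GAPDH, NPM1 and PPIA. FTL, the light chain of ferritin, had 2859, 3391 and 3960 FPKM in clones 1, 2 and 3. The glycolytic enzyme GAPDH was nearly level at 2586, 2645 and 2644 FPKM, and the nucleolar protein NPM1 at 2639, 2662 and 2572 FPKM.

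The lineage signature of K562 was erythroid, with mainly fetal globin in the beta-like cluster. Of 78 genes in 5 erythroid lists (globins, haem synthesis, iron handling, transcription factors, red cell membrane), 73 had a mean of 1 FPKM or more, which is 93.6%, and none was listed at 0 in every clone. Of 167 genes in 13 lists for other lineages, 45 reached that level, which is 26.9%, and 47 were listed at 0 in every clone. The MHC class I and class II lists are counted among these 13. Over all genes of the table the share at 1 FPKM or more was 23.4%, and over protein-coding genes 55.9%. No list was tested against another.

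**Figure D2:**
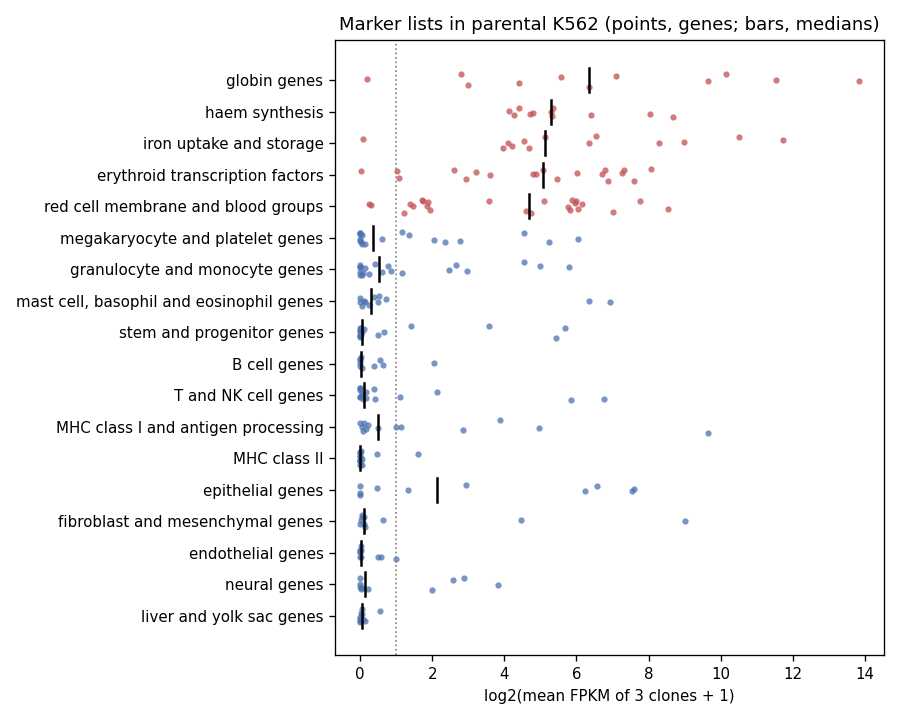
Each point is a gene of a marker list, placed by log2 of its mean FPKM over the 3 clones plus 1; red marks the 5 erythroid lists, blue the 13 lists for other lineages, black bars the list medians, and the dotted line 1 FPKM. Erythroid members lie mostly to the right of the line (73 of 78), members of the other lists mostly to its left, apart from single genes such as VIM, B2M, KRT8 and GATA2.

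Transcripts of the beta-like globin cluster were overwhelmingly of the fetal type. HBG2, one of the paired gamma-globin genes of the fetus (GRCh38 chromosome 11, 5253190 to 5505605, minus strand), had 10200.0 FPKM in clone 1, 14313 in clone 2 and 19180.0 in clone 3. Clone 3 was thus 1.88 times clone 1, with clone 2 between them. In bulk RNA, more globin per cell and more cells that make globin cannot be told apart. Its near-identical neighbour HBG1 was at only 13.0, 21.6 and 26.3 FPKM, and because the copies can share reads their split is uncertain; their sum was 10213, 14335 and 19206 FPKM. The gamma genes made up 98.9% to 99.0% of the beta-like cluster's FPKM.

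The other genes of that cluster were low. The embryonic gene HBE1 had 105, 130.2 and 170.0 FPKM in clones 1, 2 and 3. The adult gene HBB had 3.49, 5.58 and 11.8 FPKM, which is 0.0338% to 0.0606% of the cluster. Adult delta-globin HBD had 3.86, 6.72 and 7.41 FPKM. All of these were highest in clone 3 and lowest in clone 1.

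The alpha-like cluster was led by the adult and fetal genes HBA1 and HBA2, another near-identical pair, whose sum was 2728, 3996 and 5648 FPKM in clones 1, 2 and 3. HBA1 alone (chromosome 16, 176680 to 177522, plus strand) had 2046, 2890 and 4029 FPKM, and HBA2 had 682, 1107 and 1619 FPKM. The embryonic gene HBZ was also present, at 541, 692 and 1180 FPKM. Clone 3 was again the highest and clone 1 the lowest for each. HBM, a minor alpha-like gene, stayed at or under 0.258 FPKM. The beta-like sum was 3.09, 3.05 and 2.80 times the alpha-like sum in clones 1, 2 and 3, so the 2 clusters differed between clones by similar factors, 1.88 for the beta-like and 2.08 for the alpha-like sum. AHSP, a chaperone of free alpha chains, had 41.6, 42.8 and 56.1 FPKM.

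Haem synthesis was fully represented: all 11 listed genes had a mean of 10 FPKM or more. UROD, the uroporphyrinogen decarboxylase, was the highest, with 409, 399 and 407 FPKM in clones 1, 2 and 3. ALAS2, the erythroid form of the first enzyme, was low at 12.3, 16.2 and 21.2 FPKM, below its ubiquitous relative ALAS1 in each clone, which had 28.0, 24.3 and 23.9 FPKM. FECH, which inserts iron into the ring, had 70.0, 74.8 and 105.7 FPKM, with clone 3 apart from the others.

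Iron genes were abundant as well, with 12 of 13 at 10 FPKM or more. The transferrin receptor TFRC had 338, 306 and 287 FPKM in clones 1, 2 and 3, highest in clone 1, whereas the ferritin heavy chain FTH1 had 1400.0, 1450 and 1536 FPKM, highest in clone 3. The exception was HMOX1, which degrades haem, at no more than 0.124 FPKM.

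The transcription factors of the erythroid programme were present, 18 of 19 at a mean of 1 FPKM or more. GATA1 had 287, 268 and 246 FPKM in clones 1, 2 and 3, a ratio of only 1.17, and KLF1 had 122, 114 and 115 FPKM. NFE2, which acts at the globin locus control region, averaged 194 FPKM with a ratio of 1.03. BCL11A, a repressor of gamma-globin in adult red cells, was near the bottom of its list at 1.01, 0.967 and 1.42 FPKM. MYB had 191, 168 and 118 FPKM, LYL1 had 129, 109 and 88.8 FPKM, and LMO2 had 85.0, 66.0 and 41.6 FPKM, each highest in clone 1 and lowest in clone 3, as was GATA1. Of the 13 factors of mean 10 FPKM or more, 5 had that order (23.2% of all genes of this level) and 3 the reverse (31.9%); with median-ratio scaling, which sets the median gene equal between clones, the counts were 7 (29.3%) and 2 (25.8%).

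Red cell membrane genes fell into an abundant and a scarce group. RHAG, the Rh-associated glycoprotein, had 359, 380 and 369 FPKM in clones 1, 2 and 3, and GYPC, glycophorin C, averaged 217 ± 7.57 FPKM (SD, n = 3). The carbonic anhydrase CA1 had 32.7, 52.4 and 73.6 FPKM, highest in clone 3 and lowest in clone 1. SLC4A1, the band 3 anion exchanger of the mature red cell, reached only 1.48, 2.31 and 4.17 FPKM, EPB42, protein 4.2, averaged 2.33 FPKM, and CA2 averaged 0.233 FPKM. Of the 14 membrane genes of mean 10 FPKM or more, 9 were highest in clone 3 and lowest in clone 1, an order that 31.9% of all genes of this level had, and 0 the reverse, which 23.2% had; with median-ratio scaling the counts were 8 and 0.

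The promoters of 3 of these genes, which carry the lineage identity described here, are shown with those of 2 genes that differed between clones in opposite directions and are described further on, LCP2 (highest in clone 1) and MT2A (highest in clone 3). Each is the 250 bases before the gene's RefSeq start (GRCh38.p14, gene strand). Capitals mark matches on either strand to 4 letter strings: TATAAA, known from core promoters, then CCAAT, known as a site of NF-Y, then AGATAA, known from sites of GATA factors, and lastly CACCC, known from sites of KLF factors. Of 27305 promoters of this length in the table, TATAAA is present in 11.1% and the CCAAT string in 33.0%, while AGATAA is present in 9.37% and the CACCC string in 53.7%. The promoters of GATA1, at chrX:48786340-48786589 on the plus strand, KLF1, at chr19:12887202-12887451 on the minus strand, and RHAG, at chr6:49636840-49637089 on the minus strand, read as follows, with LCP2 at chr5:170297778-170298027 on the minus strand and MT2A at chr16:56608334-56608583 on the plus strand.
GATA1: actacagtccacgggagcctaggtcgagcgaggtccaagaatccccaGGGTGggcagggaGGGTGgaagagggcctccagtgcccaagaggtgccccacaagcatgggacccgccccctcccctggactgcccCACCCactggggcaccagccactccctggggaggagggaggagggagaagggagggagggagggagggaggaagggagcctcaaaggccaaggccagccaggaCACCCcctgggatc
KLF1: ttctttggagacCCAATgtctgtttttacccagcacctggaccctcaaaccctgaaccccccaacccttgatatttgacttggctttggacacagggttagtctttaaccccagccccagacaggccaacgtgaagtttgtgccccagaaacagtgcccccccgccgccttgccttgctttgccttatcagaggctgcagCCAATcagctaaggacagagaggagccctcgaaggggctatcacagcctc
RHAG: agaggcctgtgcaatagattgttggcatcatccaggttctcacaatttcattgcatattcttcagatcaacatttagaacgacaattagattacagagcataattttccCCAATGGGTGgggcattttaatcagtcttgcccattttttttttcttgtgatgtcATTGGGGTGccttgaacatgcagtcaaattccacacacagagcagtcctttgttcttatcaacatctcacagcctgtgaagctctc
LCP2: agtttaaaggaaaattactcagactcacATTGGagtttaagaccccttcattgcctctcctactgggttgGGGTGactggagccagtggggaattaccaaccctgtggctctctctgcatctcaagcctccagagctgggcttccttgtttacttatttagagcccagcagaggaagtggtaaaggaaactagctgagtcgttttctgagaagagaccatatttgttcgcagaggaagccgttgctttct
MT2A: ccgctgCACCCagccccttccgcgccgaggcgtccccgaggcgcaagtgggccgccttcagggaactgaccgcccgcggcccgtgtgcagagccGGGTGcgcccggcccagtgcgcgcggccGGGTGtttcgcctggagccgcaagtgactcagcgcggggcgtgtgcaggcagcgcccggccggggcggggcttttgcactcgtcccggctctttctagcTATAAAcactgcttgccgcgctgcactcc
In these windows CACCC was found 4 times for GATA1, 2 times for RHAG, 3 times for MT2A and 1 time for LCP2, and CCAAT was found 2 times for KLF1, 2 times for RHAG and 1 time for LCP2. In RHAG the CCAAT and CACCC matches adjoin or overlap. TATAAA was found in MT2A alone of these 5, and AGATAA in none. AGATAA is only 1 form of the GATA site, and other forms were not searched. TGATAA, which differs from it by 1 letter, occurs on the other strand in the KLF1 and RHAG windows, unmarked. A match is a string of letters and not a measured binding site. GC content was 68.4% for GATA1, 55.2% for KLF1, 40.8% for RHAG, 47.6% for LCP2 and 73.2% for MT2A, which has 32 CG dinucleotides in its window.

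Megakaryocyte genes were represented by a subset only: 8 of 18 reached 1 FPKM, 5 were listed at 0, and the list summed to 138 to 145 FPKM. ITGA2B, the platelet integrin subunit, had 25.9, 21.4 and 19.6 FPKM in clones 1, 2 and 3, highest in clone 1, while its partner ITGB3 averaged 1.24 FPKM. PF4, a platelet chemokine, was listed at 0 in every clone.

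Granulocyte and monocyte genes were mixed in the same way, with 7 of 20 at 1 FPKM or more and 4 listed at 0. The surface protein CD33 averaged 54.6 ± 1.92 FPKM and the myeloid factor SPI1 22.5 ± 1.71 FPKM (SD, n = 3), but the granule enzyme ELANE was listed at 0 and MPO did not exceed 0.07 FPKM. GATA2, shared by mast cells and progenitors, averaged 122 ± 2.15 FPKM, while KIT averaged 0.401 FPKM and CPA3 was listed at 0. PRG2, a granule protein of eosinophils, had 116, 80.2 and 47.2 FPKM in clones 1, 2 and 3, highest in clone 1.

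Of the 16 stem and progenitor genes, 4 had a mean of 1 FPKM or more and 5 were listed at 0 in every clone. CD34 averaged 0.0137 FPKM, FLT3 was listed at 0 and HOXA9 averaged 0.01 FPKM. The 4 genes were HHEX and BMI1, at 50.4 ± 2.09 and 42.2 ± 2.12 FPKM (SD, n = 3), MECOM, with 11.3, 11.9 and 9.57 FPKM in clones 1, 2 and 3, and MEIS1, with a mean of 1.69 FPKM. In the lymphoid lists, MS4A1, PAX5 and CD8A were listed at 0. The T cell receptor subunit gene CD3D stood out with 67.0, 52.6 and 50.7 FPKM in clones 1, 2 and 3, as did perforin, PRF1, with 119.6, 106.6 and 96.6 FPKM, whereas CD3E averaged 0.119 FPKM.

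Several genes named for other tissues were well expressed. The simple-epithelial keratins KRT8 and KRT18 averaged 193 ± 10.4 and 186 ± 3.26 FPKM, and EPCAM, an epithelial adhesion protein that also occurs on erythroid precursors, averaged 73.7 ± 2.41 FPKM. E-cadherin, CDH1, averaged 1.49 FPKM. Vimentin, VIM, had 689, 497 and 346 FPKM in clones 1, 2 and 3, highest in clone 1. COL1A1 averaged 0.552 FPKM, and CDH5, MAP2 and HLA-DRA, defining genes of endothelium, neurons and antigen-presenting cells, were each listed at 0. The endothelial list summed to 1.75 to 2.25 FPKM and the liver list to 0.620 to 0.862 FPKM.

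The classical MHC class I genes HLA-B and HLA-C were nearly absent although their partner chain was abundant. HLA-B had 0.268, 0 and 0.124 FPKM in clones 1, 2 and 3, and HLA-C had 0.069, 0.433 and 0. B2M, the light chain of class I molecules, had 804, 800.2 and 788 FPKM. The non-classical gene HLA-E was present at 34.1, 30.7 and 25.9 FPKM, and TAP2, a subunit of the peptide transporter, averaged 13.8 FPKM. The immunoproteasome gene PSMB8 was listed at 0. For class II, 8 of 13 genes were listed at 0 in every clone and the list summed to 1.84 to 3.16 FPKM. 

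All 18 listed genes of the leukaemic fusion and its pathway had a mean of 1 FPKM or more. BCR had 28.5, 28.4 and 28.4 FPKM in clones 1, 2 and 3, and ABL1 had 53.0, 51.7 and 51.7 FPKM. A gene level does not separate fusion from normal transcripts. PIM1, a survival kinase, had 448, 488 and 577 FPKM, highest in clone 3, whereas STAT5A itself had 201, 162 and 121 FPKM, highest in clone 1. The regulators that the wider study targets were all present in these unedited cells: ASXL1 had 49.7, 58.5 and 39.8 FPKM, FOXK1 averaged 5.49 ± 0.294 and FOXK2 41.6 ± 2.58 FPKM (SD, n = 3). ASXL3 was listed at 0.

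Some cancer-testis genes, which in healthy adults are used mainly in the germ line, were well expressed. PRAME had 937, 921 and 874 FPKM in clones 1, 2 and 3, and MAGEA3, MAGEA6 and MAGEA2, which are near-identical copies and can share reads, averaged 103, 64.9 and 52.6 FPKM. In all, 10 of 32 listed cancer-testis genes reached 1 FPKM. HOX expression was drawn mainly from the B cluster, where 5 of 10 genes reached 1 FPKM and HOXB9 had 95.3, 96.2 and 95.8 FPKM. The A cluster had 1 of 11 such genes, the C cluster 4 of 9 and the D cluster 0 of 9, with no HOXD value over 0.072 FPKM.

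In all, 32944 genes were listed at 0 in every clone, 56.6% of the table, and 3969 of 19791 protein-coding genes, or 20.1%. The share at 0 was 98.4% for small nuclear RNA genes, 99.8% for microRNA genes, 79.4% for processed pseudogenes, 70.0% for long intergenic RNA genes and 57.5% for antisense genes. Classes that every cell uses were among those at 0, such as 20 of 22 mitochondrial transfer RNA genes and 927 of 943 small nucleolar RNA genes, so a listed 0 does not show that a gene was silent. The libraries were size selected, and the part of this in the values of the smallest RNA classes was not tested.

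Families of protein-coding genes differed in their share at 0. Olfactory receptors were listed at 0 for 309 of 375 genes, keratin-associated proteins of hair for 91 of 94, beta defensins for 34 of 37, and all 18 late cornified envelope genes and all 17 type I interferon genes. Protocadherins were listed at 0 for 22 of 51 genes and taste receptors for 7 of 27. Of the zinc finger genes named ZNF, 337 of 513 reached 1 FPKM and 56 were listed at 0. Runs of protein-coding genes under 0.1 FPKM in every clone, with single genes counted as runs, numbered 2846. Their median length was 1 gene, and 45 runs held 10 genes or more. The longest held 60 genes on chromosome 11, from OR4B1 to OR5AR1, all 60 at 0 and 53 of them olfactory receptors. The next were the type I keratin and keratin-associated block from KRT20 to KRT36 on chromosome 17 with 47 genes, GRIK1 to KRTAP19-8 on chromosome 21 with 36, TCHHL1 to SPRR1B in the epidermal cluster of chromosome 1 with 35, and AADACL4 to PDPN on chromosome 1 with 31.

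A further run at or near 0 also lay between active genes, as did the run from AADACL4 to PDPN named above. By the rule of under 0.1 FPKM in every clone it held 20 genes, from HACD4 to AL359922.1, and ended before CDKN2A. The rule for the next counts was looser, a mean under 1 FPKM. From HACD4 to TUSC1 on chromosome 9 (20999515 to 25678440), 26 consecutive protein-coding genes had means under 1 FPKM, and 23 of them were listed at 0 in every clone. They include the cell cycle inhibitors CDKN2A and CDKN2B, MTAP, an enzyme of methionine salvage, KLHL9 and 16 type I interferon genes. The highest value of any of them in any clone was 0.191 FPKM, for CDKN2A in clone 2; it was listed at 0 in clones 1 and 3. MTAP had 0.010, 0.030 and 0.021 FPKM in clones 1, 2 and 3, and KLHL9 was listed at 0 in each. The genes on either side were active: FOCAD averaged 5.73 and MLLT3 66.0 FPKM before the run, CAAP1 15.9 and PLAA 13.3 FPKM after it. Loss of this region is described for K562, but DNA copy number was not measured here, and a lost gene and a silent gene cannot be told apart from transcript levels.

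**Figure D3:**
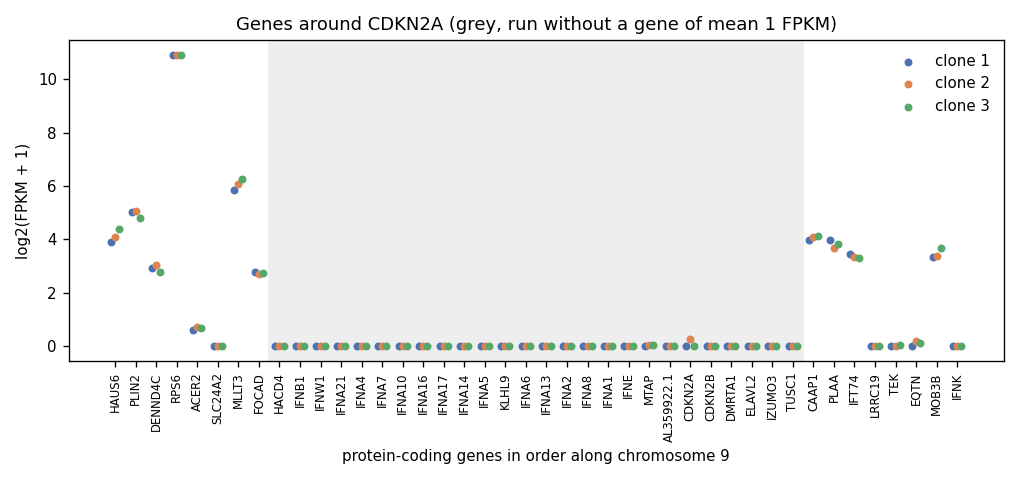
The vertical axis gives log2(FPKM + 1) of each protein-coding gene in each clone, in gene order along chromosome 9; grey marks the 26 genes from HACD4 to TUSC1. All 3 clones lie at or near 0 inside the grey area, with CDKN2A in clone 2 the highest at 0.191 FPKM, between the active genes FOCAD and CAAP1.

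Another tumour suppressor gene, RB1, was present, with a mean of 7.74 FPKM.

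The clones resembled each other closely. Among the 7552 genes of mean 10 FPKM or more, the median ratio of highest to lowest clone was 1.15 and the 90th percentile 1.41. Pearson's r of log2(FPKM + 1) across those genes was 0.979 for clones 1 and 2, 0.982 for clones 2 and 3, and 0.970 for clones 1 and 3, as a description across genes, which are not independent. A ratio of 2 or more separated clones 1 and 2 for 58 genes (0.768%), clones 2 and 3 for 56 genes (0.742%) and clones 1 and 3 for 114 genes (1.51%). Clones 1 and 3 were thus the farthest apart by each of these measures.

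In all, 142 of the 7552 genes, 1.88%, had a highest clone at least 2 times the lowest, and these are called clone-variable below. That share is itself the rate over all genes of this level, and the rule that chose the genes used the same values, so nothing is tested on them. The ratio was under 3 for 78 of them. At the edge, SEC23IP and BNIP3 entered with ratios of 2.01 and 2.02, while VIM and ARHGDIB stayed out at 1.99. At the limit of level, SELPLG entered with a mean of 10.0 FPKM and HPGD stayed out with 9.99.

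**Figure D4:**
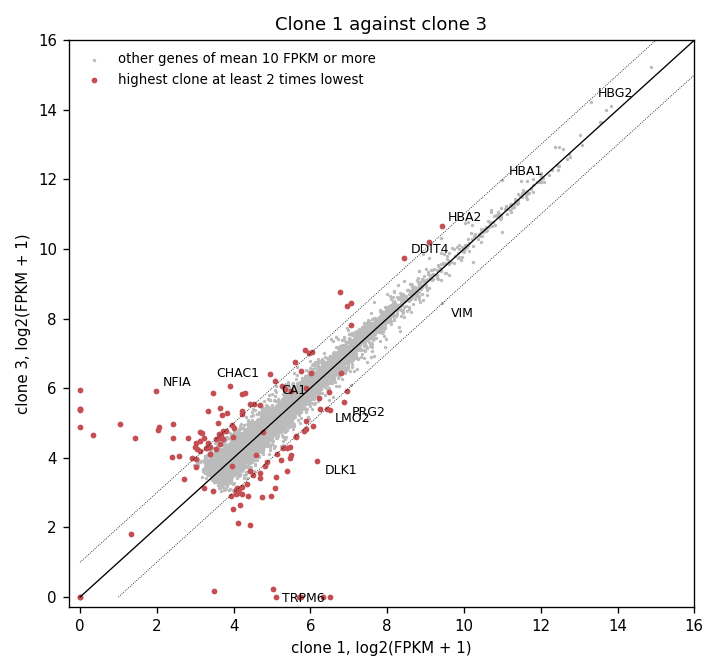
Each point is a gene of mean 10 FPKM or more, with log2(FPKM + 1) in clone 1 on the horizontal axis and in clone 3 on the vertical axis; the solid line marks equal values, the dotted lines a difference of 1 log2 unit, and red the 142 clone-variable genes. Most of the 7552 genes lie between the dotted lines; HBA2, DDIT4, CHAC1, CA1 and NFIA lie above, PRG2, LMO2, DLK1 and TRPM6 below, and VIM, HBG2 and HBA1 just inside.

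The class of a transcript and its level went with clone variability. Of 7022 protein-coding genes tested, 91 were clone-variable, or 1.30%, against 51 of 530 other genes, or 9.62%. Among the 39 tested genes whose longest transcript is under 300 nucleotides, 25 were clone-variable, or 64.1%, against 117 of 7500 longer ones, or 1.56%. The share fell from 3.06% of genes with a mean of 10 to 20 FPKM to 0.662% of those from 100 to 1000 FPKM. Copies of the U1 small nuclear RNA gene and other short RNAs were among the 14 clone-variable genes listed at 0 in at least 1 clone; RNU1-108P had 89.9 FPKM in clone 1 and was listed at 0 in clones 2 and 3, while RNVU1-15 had 41.3 FPKM in clone 3 and was listed at 0 in the others. How far low sampling of short transcripts makes these differences was not tested.

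Clone 2 usually lay between the others. Among the 142 genes, clone 3 was the highest and clone 1 the lowest for 53 (37.3%; 31.9% over all 7552 genes), and clone 1 was the highest and clone 3 the lowest for 43 (30.3%; 23.2% over all). Clone 2 was in the middle for 67.6% of them and for 55.1% of all genes. These directions depend on how the clones are scaled. With median-ratio scaling, clone 3 was the highest and clone 1 the lowest for 31.9% of the then 141 clone-variable genes (25.8% over all), and the reverse held for 36.2% (29.3% over all).

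Genes highest in clone 3 and lowest in clone 1 included red cell, stress and metal-binding genes. HBA2 and HBZ, given above, had ratios of 2.37 and 2.18, HBG1 one of 2.03 and CA1 one of 2.25. HBBP1, a pseudogene of the beta-like cluster named after its values were seen, had 61.2, 101.1 and 128.6 FPKM in clones 1, 2 and 3. The largest ratio among protein-coding genes of this order, apart from the germ cell gene C19orf57, belonged to NFIA, a transcription factor that promotes erythroid fate (chromosome 1, 60865259 to 61462793, plus strand): it had 2.92, 11.2 and 59.2 FPKM, or 20.3 times more in clone 3 than in clone 1. C19orf57 had 1.05, 15.98 and 30.6 FPKM.

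DDIT4, an inhibitor of mTOR signalling induced by stress, had 348, 580 and 847 FPKM in clones 1, 2 and 3, and CHAC1, which degrades glutathione, had 29.8, 53.2 and 84.3 FPKM. They stood apart from the rest of the amino acid stress list, in which ATF4 had 438, 476 and 474 FPKM and ASNS 265, 279 and 278 FPKM; DDIT4 and CHAC1 were the clone-variable members among 19 of mean 10 FPKM or more, beside 1.88% of all genes. The metallothionein MT2A, which binds zinc and copper, had 12.1, 25.2 and 36.3 FPKM, and its relative MT1X 31.3, 45.7 and 56.0 FPKM. The neuronal and muscle elongation factor EEF1A2 had 47.8, 74.8 and 106 FPKM, a ratio of 2.22, beside a ratio of 1.06 for EEF1A1. IFI30, a lysosomal thiol reductase, had 3.18, 22.6 and 28.6 FPKM, and ATP2A1, a calcium pump, 4.31, 28.0 and 30.3 FPKM. In those last 2 genes clones 2 and 3 stood together above clone 1.

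Of the clone-variable genes with clone 1 highest and clone 3 lowest, PRG2 and LMO2, given above, had ratios of 2.46 and 2.04. The following were picked after their values were seen, apart from PRSS57, because they are known from leukocytes. LCP2, an adaptor of T cell and platelet receptors, had 33.6, 21.3 and 9.85 FPKM in clones 1, 2 and 3. LAPTM5, a lysosomal protein of blood cells, had 48.1, 35.1 and 23.7 FPKM, and the selectin ligand SELPLG had 14.8, 10.5 and 4.75 FPKM. The innate DNA sensor adaptor TMEM173 had 123.2, 90.9 and 59.4 FPKM. PRSS57, a neutrophil serine protease, had 32.9, 20.5 and 7.70 FPKM, and the transcription factor gene ETS1 had 15.8, 12.6 and 7.45 FPKM. In each of these clone 2 lay between. They were taken from this order alone and give no direction for leukocyte genes as a set. IFI30, given above, and CFD, given below, are also known from leukocytes and were highest in clone 3.

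Among clone-variable protein-coding genes with clone 1 highest and clone 3 lowest, the largest ratio was that of TRPM6, a magnesium channel. It had 31.7, 5.41 and 0.175 FPKM in clones 1, 2 and 3. DLK1, a Notch-related protein of progenitors, had 70.5, 43.8 and 14.1 FPKM, and PLD1, a phospholipase, 41.1, 15.0 and 11.3 FPKM. P2RX1, an ATP-gated channel of platelets, and ATP2A3, a calcium pump of blood cells, lie 7370 base pairs apart on chromosome 17 and, picked after their values were seen, had the same order of clones: P2RX1 had 44.3, 31.8 and 15.9 FPKM and ATP2A3 65.9, 48.2 and 28.9 FPKM.

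Few genes set clone 2 apart. COX6B2, a testis form of a cytochrome oxidase subunit, had 1.52, 35.6 and 2.51 FPKM in clones 1, 2 and 3, and RRM2B, a subunit of ribonucleotide reductase, had 8.46, 24.4 and 7.81 FPKM. FAM98A was lowest in clone 2, with 64.0, 26.7 and 85.6 FPKM, and so was CFD, complement factor D, with 15.1, 7.90 and 28.0 FPKM. EYS, a protein of photoreceptors, was also highest in clone 2, with 10.2, 30.6 and 0.124 FPKM. In EYS, however, clone 3 stood farthest apart, where the gene was nearly absent.

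Some clone-variable genes have near-identical copies or overlap other genes, and can share reads with them; how far they did was not measured. SMIM11A and SMIM11B are near-identical: the former had 16.3, 16.7 and 3.38 FPKM in clones 1, 2 and 3 and the latter 8.08, 10.9 and 25.3 FPKM, but their sum was 24.4, 27.7 and 28.7 FPKM, with a ratio of only 1.18. NPIPA7 and SLX1A belong to duplicated families, and PIGY and LUZP6 lie within other transcripts. The clone values of these 4 genes are uncertain.

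The order of clones was also counted within the lineage lists. Of 58 erythroid-list genes of mean 10 FPKM or more, 29 (50%) were highest in clone 3 and lowest in clone 1, beside 31.9% of all genes, and 11 (19.0%) were the reverse, beside 23.2%. Of 16 genes from the 8 lists for other blood cells, 2 (12.5%) followed the first order and 8 (50%) the second. These lists include MHC class I, which is not a list of 1 lineage. It supplied 3 of the 16 genes, 1 with the first order and 2 with the second. With median-ratio scaling the erythroid counts were 27 (46.6%; 25.8% of all genes) and 16 (27.6%; 29.3% of all genes). Of the 58 erythroid genes 5 were clone-variable (8.62%), and of the 16 others 1 (6.25%), beside 1.88% of all genes. The 5 did not share an order: HBA2, HBZ, HBG1 and CA1 were highest in clone 3, and LMO2 was highest in clone 1. HBG1 fell under a ratio of 2 with 1 FPKM added or with median-ratio scaling. The sum of HBG1 and HBG2 had a ratio of 1.88.

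The median globin gene was lower in clone 1 than the mean of the other clones, by a log2 difference of -0.74, was at -0.07 in clone 2, and was higher in clone 3, at 0.63. Replication-dependent histone genes showed -0.59, -0.04 and 0.54, with HIST1H1C at 491, 691 and 923 FPKM in clones 1, 2 and 3. Red cell membrane genes showed -0.19, -0.02 and 0.24, and haem synthesis -0.15, -0.03 and 0.19. Erythroid transcription factors as a list differed little, at 0.01, 0.01 and -0.01.

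Energy genes had the same order at smaller size. The median for transcripts of the mitochondrial genome was -0.20, -0.05 and 0.23 in clones 1, 2 and 3, for nuclear-encoded respiration genes -0.15, -0.01 and 0.15, and for glycolysis -0.22, 0.02 and 0.16. LDHA, which makes lactate, had 681, 795 and 937 FPKM. The median over all genes of mean 1 FPKM or more was -0.03, -0.01 and 0.03, and over stable reference genes 0.00, 0.03 and -0.04. Granulocyte and monocyte genes had medians of 0.15, -0.07 and -0.19, from 7 genes. The signs of the globin, histone, membrane, haem and energy medians in clones 1 and 3 were the same with median-ratio scaling; those of the erythroid transcription factors were 0.03 and -0.05.

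**Figure D5:**
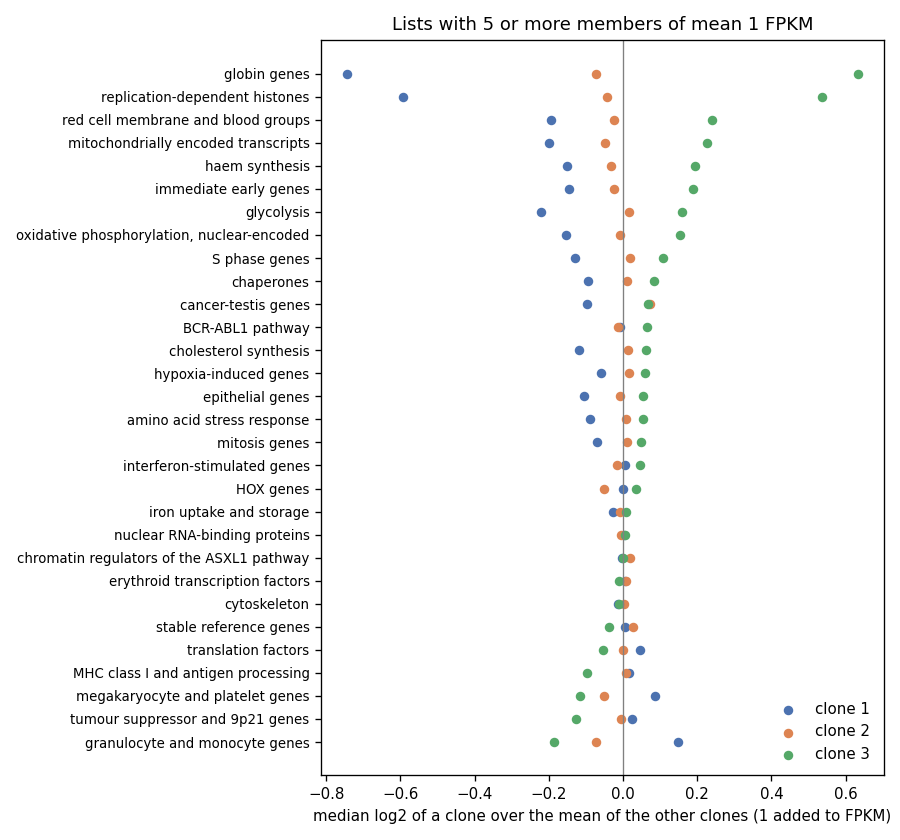
Each row is a gene list with at least 5 members of mean 1 FPKM; points give the median over its members of log2 of a clone over the mean of the other clones, with 1 added to FPKM. Globins and replication-dependent histones spread the most, from -0.74 to 0.63 and from -0.59 to 0.54, with clone 1 lowest and clone 3 highest, while translation factors, cytoskeleton and reference genes stay near 0.

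RNA5-8S4, a 5.8S ribosomal RNA gene, had the same order, with 1039, 1446 and 1701 FPKM in clones 1, 2 and 3. The summed FPKM had the same order, and so did the factor per library. Of other non-coding RNA genes, picked after their values were seen, RPPH1 and BCYRN1 had this order. RMRP, RN7SK and the long intergenic RNA gene FP236383.1 were lowest in clone 1 and highest in clone 2. FP236383.1 had 1107, 1929 and 1738 FPKM in clones 1, 2 and 3. RNU1-108P and MT-RNR2 were highest in clone 1. The part of these values in the clone differences was not tested. Position along the chromosomes showed small shifts: chromosome medians among autosomes and X lay between -0.07 and 0.10 on the log2 scale in every clone. Chromosome 21 had the highest median in clone 3, at 0.10, or 0.06 with median-ratio scaling. Of 292 windows of 25 neighbouring genes, the most shifted ran from FP565260.6 to ATP5J on chromosome 21, with -0.28 in clone 1 and 0.25 in clone 3. The next were HIST1H2BD to RPP21 on chromosome 6, which holds histone genes (0.26 in clone 3), POLR3K to METRN on chromosome 16, which holds the alpha-globin cluster (0.23), and CNIH4 to TRIM11 on chromosome 1 (0.16). The chromosome 21 window held 3 clone-variable genes, FP236383.2, FP236383.3 and SMIM11B, the last a near-identical copy of SMIM11A. Its 25 genes are among the 94 behind the chromosome 21 median. How far such genes shape that median was not tested.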

How the data were processed

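Whether the libraries were poly(A) selected or depleted of ribosomal RNA is not given in the sources used here. Per the labels' protocols, total RNA from cultured cells was made into libraries of 200 to 300 base pair fragments and sequenced as paired reads of 150 bases. The deposited values are FPKM per gene, named so per the file headers; the submitters' processing notes name GRCh38.p10, TopHat, Bowtie, RSEM, edgeR and Cufflinks, with no role or version. FPKM were used as deposited. In each clone, at least 99.9% of values from 1 to 20 FPKM were whole multiples, within 0.1 of a step, of 1 step of 0.00992, 0.0101 or 0.0103 FPKM in clones 1, 2 and 3, and so were 100% of values from 20 to 60. The step is the same for all genes, so it is the rounding of the deposited FPKM times 1 factor per library and gives no counts or depth.

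Gene classes and positions came from GENCODE 29 (GRCh38), which matched 57895 of 58233 genes. Gene groups came from 40 lists with 702 symbols, of which 701 were found. The members and lists were chosen with earlier results of these data known. Named genes were the 30 most abundant, marked list members, the highest list members, the clone-variable genes with the largest ratios per clone, and clone-variable list members; other names were picked after their values were seen. Log2 comparisons added 1 FPKM. Promoters came from RefSeq (GRCh38.p14) and matched 77.3% of protein-coding genes and 63.7% of the protein-coding clone-variable genes; because under 80% matched, the planned comparison of promoter features between gene sets is void. Scripts ran in Python 3.11.15 with numpy 2.4.6, pandas 2.3.3 and matplotlib 3.10.9. The code of the clone-variable rule was checked on simulated data with little noise. No planted ratio was close to 2 and none was on a gene close to a mean of 10 FPKM. The check therefore does not show how often noise makes a gene clone-variable. With 1 library per clone no p-value was computed. Some members of the lists are not reported here by name.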

Additional observations from a re-analysis of the deposited data

How the results depend on the processing

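No paired analysis was possible because there is 1 group of 3 clones and no test. The count of 142 clone-variable genes rested on its thresholds. It was 278 with a minimum mean of 5 FPKM, 68 with a minimum of 20, 1017 with no minimum and 1 FPKM added, 64 at a ratio of 3 or more, and 91 among protein-coding genes; fewer or more genes enter by construction. It was 51 to 116 when 1 clone was left out, because fewer clones span a smaller range: 53 without clone 1, 116 without clone 2 and 51 without clone 3. It was 125 with 1 added, 141 with median-ratio scaling, and 117 without genes whose longest transcript is under 300 nucleotides, an alternative chosen after seeing the data. Protein-coding genes alone gave 3969 genes listed at 0 in every clone. The 30 most abundant genes held 26.5% of the protein-coding sum and 18.2% without mitochondrial transcripts. Among the other lineage lists, 77 members had a mean of 0.1 FPKM or more and 23 of 10 or more. With median-ratio scaling, the chromosome 21 median was 0.063 in clone 3 and -0.041 in clone 1.

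Of 42 named clone-variable genes above 0 in every clone, 4 fell under a ratio of 2 with 1 FPKM added (ZNF253, HIST1H2BD, HBG1, BNIP3) and 4 with median-ratio scaling (HIST1H2BD, HIST1H2AC, HBG1, BNIP3). With 1 library per clone and unknown depth, low and short transcripts are the least certain.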

Other observations

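The genes named here were picked after their values were seen. Of the mitosis list 19 of 20 genes and of the S phase list 19 of 20 had a mean of 10 FPKM or more, and 0 of them were clone-variable, beside 1.88% of all genes, a share too low for that count to set the lists apart. Clone 3 was highest and clone 1 lowest for 12 of the 19 mitosis genes and 10 of the 19 S phase genes, beside 31.9% of all genes; with median-ratio scaling the counts were 9 and 7, beside 25.8%. The mitotic cyclin CCNB1 averaged 185 ± 4.37 FPKM, the polo-like kinase PLK1 119 ± 1.48 FPKM and the replication clamp PCNA 197 ± 13.6 FPKM (SD, n = 3 clones). The cholesterol list had 23 of 23 genes at 1 FPKM or more, and 13 of the 20 at 10 FPKM or more had that order, or 10 with median-ratio scaling; fatty acid synthase, FASN, had 162, 180 and 213.5 FPKM in clones 1, 2 and 3, highest in clone 3. MYC averaged 241 ± 14.1 FPKM.

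Some members of one family differed in direction or level. The constitutive chaperone HSPA8 had 1209, 1055 and 796 FPKM in clones 1, 2 and 3, whereas HSP90AA1 had 288, 368 and 439 FPKM and HSPE1 270, 331 and 403 FPKM. The actin gene ACTG1 had 2022, 1803 and 1442 FPKM, highest in clone 1, while ACTB had 1065, 1095 and 1117 FPKM. Of the interferon-stimulated list 11 of 23 genes reached 1 FPKM: IFITM1 had 1385, 1250 and 1185 FPKM, and IFITM3 averaged only 6.81 FPKM. Among hypoxia genes VEGFA had 239, 210 and 182 FPKM, highest in clone 1, and NDRG1 had 13.3, 20.2 and 23.3 FPKM, highest in clone 3.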
